A study of Mus musculus with 36 samples.

Results

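The 10 genes described here carry or restrain signalling by transforming growth factor beta (TGF-beta) and bone morphogenetic proteins (BMP): the ligands Tgfb1, Tgfb2, Tgfb3 and Bmp7, the receptors Tgfbr1 and Tgfbr2, the intracellular inhibitor Smad7, the secreted BMP antagonist Grem1, the latent ligand activator Thbs1 and the target gene Ctgf. They were chosen by name, and all 10 were present among the 15730 genes of the deposited count table and passed the filter on low counts. RNA was taken from the kidney cortex of male ApoE-/- mice on a C57BL/6 background, so mice in every group, controls included, lack apolipoprotein E. Diabetic mice had received 5 daily intraperitoneal injections of streptozotocin at 55 mg/kg from 6 weeks of age, a toxin of pancreatic beta cells. Diabetic and nondiabetic mice were each given lipoxin A4 (LXA4, a lipid mediator made from arachidonic acid) at 5 µg/kg, its synthetic analog benzo-LXA4 at 1.7 µg/kg, or vehicle (0.1% ethanol), by intraperitoneal injection 2 times a week, which gave 6 groups of 6 libraries. The labels describe a 16-week protocol with treatment from week 10 without tying these libraries to it, and they do not say that replicates are separate mice, so p-values measure the spread between these libraries, which may be in part technical. Because the 2 compounds were given at different doses, their values are set side by side and were not tested against each other.

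TGF-beta ligands are secreted in latent form and, once released, bind a receptor complex that phosphorylates Smad transcription factors. In the kidney this pathway is known for driving matrix deposition and fibrosis, whereas BMP7 is known for opposing it. Gremlin-1, the product of Grem1, binds and blocks BMP ligands and is known from work on diabetic nephropathy, and SMAD7 is induced by TGF-beta and feeds back to inhibit its receptor.

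Total counts ran from 18009386 to 43305005 in 34 of the 36 libraries. The remaining pair was shallower and rich in ribosomal and small structural RNA: diabetic LXA4 replicate 6 had 8896193 counts, 42.9% of them from such genes, and nondiabetic vehicle replicate 3 had 10086698 counts and 11.6%, against at most 3.37% in the other 34. Results that rest on this pair are given with and without it. Levels are given as CPM, counts relative to the library total after TMM scaling. Markers fitted the labelled tissue, with the proximal tubule gene Lrp2 at a mean of 4970 CPM. The summed level of 12 proximal tubule markers was 12000 to 17500 CPM in diabetic vehicle libraries and 15100 to 22200 CPM in nondiabetic vehicle libraries. Over the 3 treatments, 8 of the 12 were lower in diabetic than in nondiabetic mice by the test used below. Of all genes, 35.4% were called in either direction in that comparison, and 18.8% were called higher. In these bulk libraries, fewer cells of a type and less RNA per cell cannot be told apart.

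The Grem1 and Tgfb2 promoters below are shown because these genes passed the test between diabetic and nondiabetic mice averaged over treatments. The first Tgfbr1 promoter is shown because the series' title names an Egr-1 network, whose binding word occurs there. Each runs from 250 bases before to 50 bases after the RefSeq start (GRCm38.p6), and RefSeq entries were matched for 5 of the 10 genes. The words searched, on both strands, were GCGGGGGCG and its variant GCGTGGGCG (EGR1), CAGACA (a Smad word of TGF-beta targets), GGCGCC (a Smad word of BMP targets) and GGAATG (TEAD), and capitals mark a match. No matches overlapped.
Grem1 promoter: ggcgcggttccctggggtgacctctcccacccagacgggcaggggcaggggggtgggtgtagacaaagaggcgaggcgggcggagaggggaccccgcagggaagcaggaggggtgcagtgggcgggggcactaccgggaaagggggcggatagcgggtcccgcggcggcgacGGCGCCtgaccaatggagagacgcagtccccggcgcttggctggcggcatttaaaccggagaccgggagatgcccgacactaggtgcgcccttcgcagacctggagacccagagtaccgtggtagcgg
Tgfb2 promoter: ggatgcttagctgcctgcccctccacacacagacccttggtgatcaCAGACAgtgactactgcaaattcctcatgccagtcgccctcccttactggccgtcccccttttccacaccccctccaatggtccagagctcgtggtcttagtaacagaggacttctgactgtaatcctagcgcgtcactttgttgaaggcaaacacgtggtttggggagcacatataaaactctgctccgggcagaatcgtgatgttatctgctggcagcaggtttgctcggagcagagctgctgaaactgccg
Tgfbr1 promoter: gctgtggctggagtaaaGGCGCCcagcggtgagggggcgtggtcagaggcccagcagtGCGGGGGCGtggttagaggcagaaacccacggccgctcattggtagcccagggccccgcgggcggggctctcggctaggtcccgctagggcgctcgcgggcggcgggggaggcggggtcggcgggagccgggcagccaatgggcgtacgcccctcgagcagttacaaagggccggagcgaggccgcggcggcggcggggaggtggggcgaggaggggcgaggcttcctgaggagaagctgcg

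The Grem1 promoter (chr2:113758599-113758898, minus strand) held GGCGCC 78 bases before the start and none of the other words. The Tgfb2 promoter (chr1:186705940-186706239, minus strand) held CAGACA 204 bases before the start. The first Tgfbr1 promoter (chr4:47352972-47353271, plus strand) held GGCGCC 233 bases and GCGGGGGCG 192 bases before the start. A second Tgfbr1 promoter (chr4:47385966-47386265, plus strand), not shown, held CAGACA 203 bases before its start and none of the other words. Among 32851 promoters of the same length, 11.9% held GGCGCC, 21% held CAGACA, 2.91% held GCGGGGGCG, 0.612% held GCGTGGGCG and 14.7% held GGAATG, so the 2 Smad words are common. The variant GCGTGGGCG occurred in the Tgfb1 promoter, 122 bases before the start, and the Tgfbr2 promoter held none of the words. The Tgfb1 and Tgfbr2 promoters are not shown, so every promoter shown holds a match. These matches describe letters, not binding.

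Per kilobase of merged exon, the most abundant of the 10 genes was Tgfbr1, at a median of 18.2 CPM per kb over the libraries, with Ctgf next at 16.9 CPM per kb. Tgfbr2, Bmp7, Smad7 and Thbs1 lay between 10.3 and 12.3 CPM per kb, and their ranges over libraries overlapped. The TGF-beta ligands were much lower, at 1.62 CPM per kb for Tgfb1, 0.816 CPM per kb for Tgfb2 and 0.434 CPM per kb for Tgfb3. Grem1 was the lowest, at 0.0922 CPM per kb, with libraries between 0 and 2.35 CPM per kb.

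**Figure D1:**
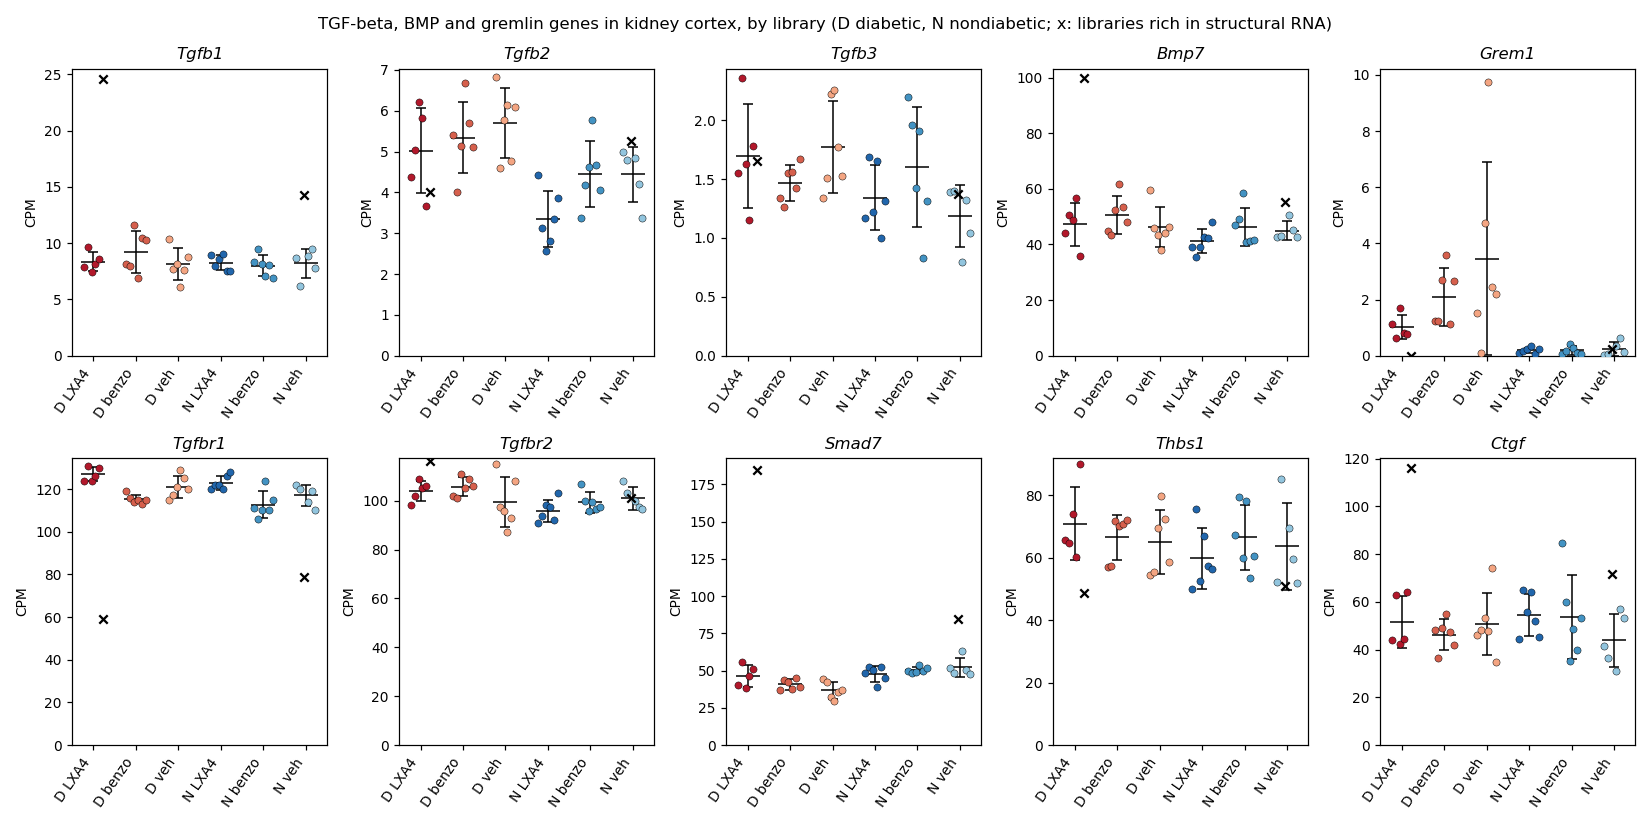
Level (CPM, linear axis from 0) of the 10 genes in each of the 36 libraries, by group (D diabetic, N nondiabetic). Points are libraries, bars are mean ± SD without the pair rich in structural RNA, and crosses are that pair. Grem1 stands higher in diabetic libraries, with diabetic vehicle libraries between 0.112 and 9.74 CPM, and the crosses stand apart for Smad7 and Tgfb1.

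Grem1 was the gene of the set with the largest difference between diabetic and nondiabetic mice, in every treatment. Diabetic vehicle libraries had 0.112, 2.32 and 9.74 CPM (lowest, median and highest), against 0.0386, 0.186 and 0.628 CPM in nondiabetic vehicle libraries. Diabetic LXA4 libraries had 0, 0.799 and 1.71 CPM, against 0.0689, 0.206 and 0.33 CPM in nondiabetic LXA4 libraries. Diabetic benzo-LXA4 libraries had 1.12, 1.95 and 3.58 CPM, against 0.0637, 0.131 and 0.429 CPM in nondiabetic benzo-LXA4 libraries. The benzo-LXA4 groups did not overlap; the other 2 comparisons overlapped through 1 diabetic library each. These were diabetic vehicle replicate 2, with 2 Grem1 counts where the other 5 had 46 to 302, and diabetic LXA4 replicate 6 of the shallow pair, with 0 counts, which allows up to 0.708 CPM (3 counts, counting error only).

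The mean Grem1 level of diabetic mice was 14.6 times that of nondiabetic mice under vehicle, 4.41 times under LXA4 and 11.3 times under benzo-LXA4. Without diabetic vehicle replicate 4 the ratio under vehicle was 9.28. In edgeR's quasi-likelihood test with Benjamini-Hochberg adjustment over all genes, the log2 difference was 3.77 ± 0.63 (SE) under vehicle (adjusted p = 2.63e-04), 2.26 ± 0.66 under LXA4 (adjusted p = 0.0112) and 3.45 ± 0.65 under benzo-LXA4 (adjusted p = 0.00132). In all, 5 of 6 diabetic vehicle libraries, 5 of 6 diabetic LXA4 libraries and 6 of 6 diabetic benzo-LXA4 libraries exceeded the mean of their nondiabetic counterparts. Averaged over the 3 treatments, Grem1 rose by 3.16 ± 0.37 (adjusted p = 1.22e-07). It was called in each of these comparisons whichever 1 library was left out and without the shallow pair. The log2 difference under vehicle was 3.14 without diabetic vehicle replicate 4 and 4.41 without nondiabetic vehicle replicate 5. Grem1 lies at chr2:113746164-113758646 on the minus strand (GRCm38).

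Grem1 was the 1 gene of the 10 called under vehicle, where 5.6% of all genes tested were called and 3.44% were called higher. Under LXA4, 4 of the 10 rose, Grem1, Tgfb2, Bmp7 and Tgfbr2, where 27.7% of all genes were called and 15.4% were called higher. Under benzo-LXA4, Grem1 alone rose, where 4.06% of all genes were called and 2.81% were called higher. Averaged over treatments, Grem1 and Tgfb2 rose, where 35.4% of all genes were called and 18.8% were called higher, so that 2 of 10 is near the share over all genes. None of the 10 was called lower by edgeR with all 36 libraries, whereas voom with sample weights on the same libraries called Smad7 lower under vehicle, under benzo-LXA4 and averaged over treatments. Without the shallow pair the shares called were 8.89%, 36.9%, 12.1% and 47.4% in the same 4 comparisons, Bmp7 and Tgfbr2 were no longer called under LXA4, and Smad7 was called lower in 3 of the 4, where 3.8% of all genes were called lower under vehicle, 6% under benzo-LXA4 and 24.9% averaged over treatments. With all 36 libraries, the median log2 difference of the 10 genes was 0.08 under vehicle (all genes -0.01), 0.33 under LXA4 (all genes 0.05), 0.06 under benzo-LXA4 (all genes -0.01) and 0.10 averaged over treatments (all genes 0.01). The shallow pair raised several values behind the LXA4 median. Without it the LXA4 difference was 0.19 for Bmp7 and 0.11 for Tgfbr2. Those of Tgfb1 and Smad7 were lower without it too, as given below.

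**Figure D2:**
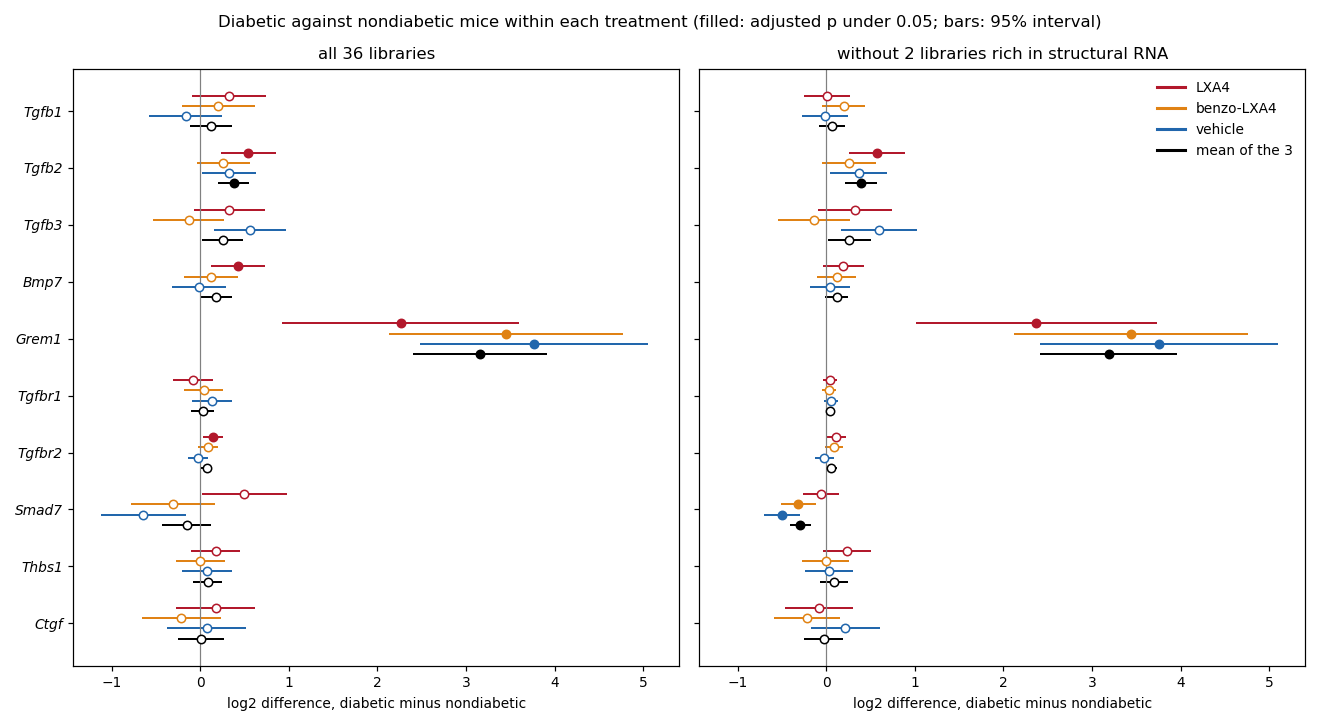
Log2 difference, diabetic minus nondiabetic, of the 10 genes within LXA4, benzo-LXA4 and vehicle and averaged over the 3, with all 36 libraries (left) and without the pair rich in structural RNA (right). Bars are 95% intervals and filled points have an adjusted p under 0.05; Grem1 lies far to the right in all 4, at 2.26 to 3.77 with all libraries, and Smad7 is filled below 0 only on the right.

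Among the TGF-beta ligands, Tgfb2 was the one called by edgeR with all 36 libraries. Tgfb2 (chr1:186622792-186705989, minus strand) encodes TGF-beta 2, one of the ligand's isoforms. Diabetic LXA4 libraries had 3.66, 4.71 and 6.21 CPM, against 2.57, 3.23 and 4.42 CPM in nondiabetic LXA4 libraries. Diabetic benzo-LXA4 libraries had 4.02, 5.28 and 6.67 CPM, against 3.36, 4.41 and 5.77 CPM in nondiabetic benzo-LXA4 libraries. Diabetic vehicle libraries had 4.59, 5.93 and 6.82 CPM, against 3.36, 4.82 and 5.26 CPM in nondiabetic vehicle libraries. The groups overlapped in all 3, although 6 of 6, 5 of 6 and 6 of 6 diabetic libraries in turn lay above the nondiabetic mean. Tgfb2 rose under LXA4 by a log2 difference of 0.54 ± 0.15 (SE; edgeR adjusted p = 0.00873) and averaged over treatments by 0.38 ± 0.09 (adjusted p = 0.00107). Under vehicle the difference was 0.33 ± 0.15 (adjusted p = 0.202) and under benzo-LXA4 0.26 (adjusted p = 0.378), both short of the threshold.

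Tgfb1, which encodes the isoform most studied in renal fibrosis, lay between 6.10 and 11.6 CPM in diabetic libraries and between 6.15 and 9.52 CPM in nondiabetic libraries outside the shallow pair, in which it was 24.6 CPM in diabetic LXA4 replicate 6 and 14.3 CPM in nondiabetic vehicle replicate 3. Its log2 difference between diabetic and nondiabetic mice was -0.16 under vehicle (edgeR adjusted p = 0.695), 0.33 under LXA4 (adjusted p = 0.231) and 0.21 under benzo-LXA4 (adjusted p = 0.666). Without the pair the vehicle and LXA4 values were -0.01 and 0.01. Tgfb1 lies at chr7:25687002-25705077 on the plus strand.

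Tgfb3, the least abundant of the isoforms, had 1.34, 1.65 and 2.26 CPM in diabetic vehicle libraries, against 0.793, 1.35 and 1.40 CPM in nondiabetic vehicle libraries. All 6 diabetic vehicle libraries lay above the nondiabetic mean, but the groups overlapped. The log2 difference of 0.56 ± 0.20 (SE) did not pass (edgeR adjusted p = 0.092), nor did 0.33 under LXA4 (adjusted p = 0.211), -0.13 under benzo-LXA4 (adjusted p = 0.799) or the average of 0.25 (adjusted p = 0.081). In fits that left out 1 library, the average for Tgfb3 passed in 2 of 36. Tgfb3 lies at chr12:86056745-86079041 on the minus strand.

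Bmp7, which encodes a BMP made by the distal nephron and podocytes, was called by edgeR under LXA4 alone, and by voom also averaged over treatments (0.16, adjusted p = 0.0189). It had 35.7, 49.7 and 100 CPM in diabetic LXA4 libraries, against 35.5, 40.8 and 48.0 CPM in nondiabetic LXA4 libraries, a log2 difference of 0.42 ± 0.15 (SE; edgeR adjusted p = 0.0352). The groups overlapped, and the highest value was that of diabetic LXA4 replicate 6. Without the shallow pair the difference was 0.19 (adjusted p = 0.173), and the call held in 7 of 12 fits that left out 1 library of these groups. Under vehicle Bmp7 had 38.0, 45.0 and 59.4 CPM in diabetic libraries, against 42.5, 44.2 and 55.1 CPM in nondiabetic libraries, a difference of -0.01. Bmp7 lies at chr2:172868012-172940321 on the minus strand.

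The receptors varied little. Tgfbr2, the ligand-binding type II receptor kinase (chr9:116084293-116175360, minus strand), had 98.2, 105 and 116 CPM in diabetic LXA4 libraries, against 91.0, 95.5 and 103 CPM in nondiabetic LXA4 libraries. All 6 diabetic libraries exceeded the nondiabetic mean and the groups overlapped. The log2 difference of 0.14 ± 0.05 (SE) passed narrowly (edgeR adjusted p = 0.0468), fell short without the shallow pair at 0.11 (adjusted p = 0.0886), and held in 3 of 12 fits that left out 1 library. It also fell short when structural RNA genes were left out (edgeR adjusted p = 0.0662). Averaged over treatments Tgfbr2 was not called by edgeR with its own filter. It was called by voom (0.07, adjusted p = 0.0317), DESeq2 (0.07, adjusted p = 0.0483) and edgeR with a filter of 1 CPM (0.08, adjusted p = 0.0421). Tgfbr1, the type I receptor kinase (chr4:47353222-47414931, plus strand), lay between 113 and 131 CPM in diabetic libraries and between 106 and 128 CPM in nondiabetic libraries outside the shallow pair. In the pair it was 59.3 CPM in diabetic LXA4 replicate 6 and 78.6 CPM in nondiabetic vehicle replicate 3. Its difference over treatments was 0.03 (adjusted p = 0.75).

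Smad7, the inhibitory Smad, fell in diabetic mice under vehicle and benzo-LXA4 in edgeR without the shallow pair and in voom with sample weights on all 36 libraries. It was not called by edgeR with all 36 in 1 fit. Fitted to only the compared groups, edgeR called it lower under vehicle (-0.64, adjusted p = 0.0365) and benzo-LXA4 (-0.31, adjusted p = 0.00613). Under LXA4, edgeR without diabetic LXA4 replicate 3 called it higher (0.62, adjusted p = 0.0476), with the shallow pair kept. Diabetic vehicle libraries had 29.6, 36.5 and 44.1 CPM, against 47.5, 51.1 and 84.9 CPM in nondiabetic vehicle libraries. Diabetic benzo-LXA4 libraries had 36.7, 40.6 and 45.1 CPM, against 48.4, 49.6 and 53.7 CPM in nondiabetic benzo-LXA4 libraries. Diabetic LXA4 libraries had 38.1, 48.7 and 185 CPM, against 38.7, 49.5 and 52.5 CPM in nondiabetic LXA4 libraries. The groups did not overlap under vehicle or benzo-LXA4 and overlapped under LXA4, and the 2 highest values of all, 185 and 84.9 CPM, were those of the shallow pair.

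With all 36 libraries no Smad7 difference between diabetic and nondiabetic mice passed: the log2 value was -0.64 ± 0.24 (SE) under vehicle (edgeR adjusted p = 0.102), -0.31 under benzo-LXA4 (adjusted p = 0.553) and 0.50 under LXA4 (adjusted p = 0.11). Without the pair Smad7 fell by 0.50 ± 0.10 on the log2 scale under vehicle (adjusted p = 0.00171), a ratio of means of 0.705. It also fell by 0.31 under benzo-LXA4 (adjusted p = 0.0286) and by 0.29 averaged over treatments (adjusted p = 1.38e-04). With all 36 libraries voom gave -0.49 under vehicle (adjusted p = 0.00245), -0.32 under benzo-LXA4 (adjusted p = 0.0125) and -0.31 averaged (adjusted p = 2.19e-05). In edgeR under LXA4 the value without the pair was -0.05 (adjusted p = 0.698), against 0.50 with it. The difference between LXA4 and vehicle in this effect, the interaction, was 0.45 ± 0.14 without the pair and did not pass (adjusted p = 0.1).

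Thbs1, which encodes thrombospondin-1, an activator of latent TGF-beta (chr2:118111876-118127133, plus strand), lay between 48.6 and 89.8 CPM in diabetic libraries and between 49.8 and 85.0 CPM in nondiabetic libraries. Ctgf, connective tissue growth factor, a classical TGF-beta target (chr10:24595442-24598683, plus strand), lay between 35.0 and 116 CPM in diabetic libraries, the highest again diabetic LXA4 replicate 6, and between 31.0 and 84.7 CPM in nondiabetic libraries. Neither was called in any comparison. The log2 difference under vehicle was 0.08 for Thbs1 and 0.07 for Ctgf, smaller than the spread within groups. Ctgf shares 665 exon bases with Gm15270 on the other strand, and the strand setting of the counting is not given, so that reads of these genes cannot be told apart.

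Set against vehicle within diabetic mice, neither compound moved any of the 10 genes past the threshold in edgeR, and DESeq2 called Smad7 for LXA4. For LXA4, 0.356% of all genes were called (2468 genes at an unadjusted p under 0.05), and for benzo-LXA4 0% (891 genes). In nondiabetic mice 0% were called for either compound (967 genes at an unadjusted p under 0.05 for LXA4 and 452 for benzo-LXA4). With DESeq2 the counts of all genes were 221 and 48 in diabetic mice and 3 and 2 in nondiabetic mice, LXA4 first.

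Smad7 and Grem1 had the lowest unadjusted p-values of the 10 genes under LXA4 in diabetic mice. Grem1 had a mean of 0.844 CPM in diabetic LXA4 libraries, against 3.46 CPM in diabetic vehicle libraries, and 6 of 6 LXA4 libraries lay below the vehicle mean, as did 4 of the 6 vehicle libraries themselves, since replicate 4 stood at 9.74 CPM. The log2 difference was -1.90 ± 0.55 (SE; 95% interval -3.01 to -0.79; edgeR adjusted p = 0.125), and -1.80 (adjusted p = 0.126) without the shallow pair. Without diabetic vehicle replicate 4 the vehicle mean was 2.2 CPM and the difference -1.26 (adjusted p = 0.278). With benzo-LXA4 the mean was 2.09 CPM, 5 of 6 libraries lay below the vehicle mean and 3 of 6 below the vehicle median, and the difference was -0.75 (95% interval -1.79 to 0.28), or -0.11 without diabetic vehicle replicate 4. The interaction of LXA4 with diabetes was -1.51 for Grem1 (adjusted p = 0.419), in a comparison where 0.248% of all genes were called.

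Smad7 under LXA4 in diabetic mice had a log2 difference from vehicle of 0.87 ± 0.24 (SE; edgeR adjusted p = 0.0997), and all 6 LXA4 libraries lay above the vehicle mean, with overlap. Without the pair it was 0.32 (adjusted p = 0.121). DESeq2 on all 36 libraries called it, at 0.90 (adjusted p = 0.0199), and its interaction with diabetes at 1.17 (adjusted p = 0.0412), where edgeR gave 1.14 (adjusted p = 0.117). With benzo-LXA4 the Smad7 difference was 0.14. In nondiabetic mice, Tgfb2 had a difference of -0.44 under LXA4, with 6 of 6 LXA4 libraries below the vehicle mean and an unadjusted edgeR p of 0.00673 (adjusted p = 0.807). The diabetic-minus-nondiabetic difference of Tgfb2 under LXA4, 0.54, uses the same nondiabetic LXA4 libraries.

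**Figure D3:**
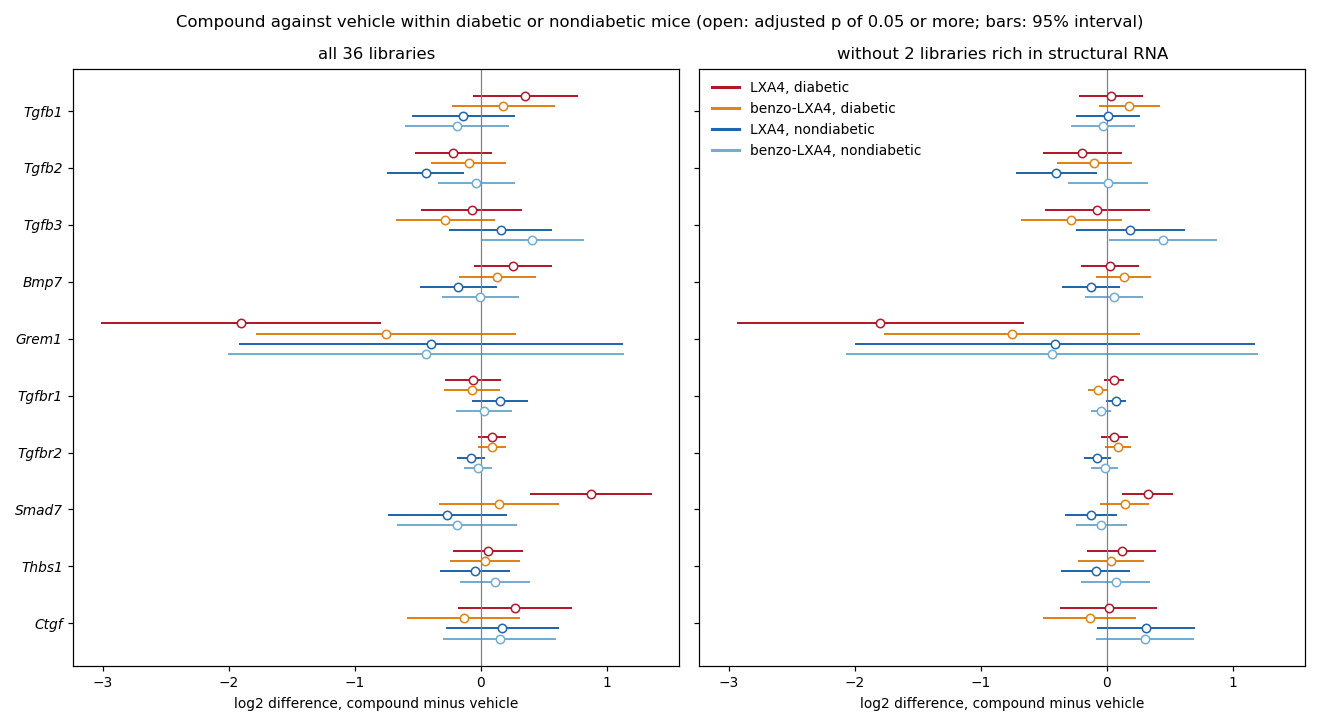
Log2 difference, compound minus vehicle, of the 10 genes for LXA4 and benzo-LXA4 within diabetic and within nondiabetic mice, with all 36 libraries (left) and without the pair rich in structural RNA (right). Bars are 95% intervals and open points have an adjusted p of 0.05 or more; the Grem1 interval for LXA4 in diabetic mice, -3.01 to -0.79, lies below 0, and no point is filled.

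Beyond the 10 genes, 106 of 116 listed genes of the pathway were tested, the 10 included. Averaged over treatments 23 were called higher and 9 lower in diabetic mice, where 35.4% of all genes were called. Under vehicle the counts were 9 and 0 (5.6% of all genes called), under LXA4 22 and 4 (27.7%) and under benzo-LXA4 3 and 1 (4.06%). The counts by role below are to be read against the averaged share over all genes, 18.8% called higher and 35.4% in either direction. Those of ligands, modulators, latency genes and targets lie near the share in either direction. For ligands, modulators and latency genes, the counts called higher lie above the share called higher, which was not tested. In edgeR the 2 compounds moved none of the 106 against vehicle in either state; among the 10 genes, DESeq2 called Smad7 for LXA4 in diabetic mice. Without the shallow pair the vehicle counts were 17 and 2 (8.89% of all genes called), and the benzo-LXA4 counts 4 and 8 (12.1%). The LXA4 and averaged counts above, and the counts by role below, are those with all 36 libraries. They include diabetic LXA4 replicate 6, and their values without the pair are not given here.

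Among extracellular modulators, 5 of 17 tested rose over treatments and 1 fell. Besides Grem1, the steepest was Tll2, a tolloid-like metalloprotease of the BMP1 family. Tll2 lay between 0.41 and 1.44 CPM in diabetic libraries and at most 0.229 CPM in nondiabetic libraries, with no overlap. These levels rest on low counts, and in diabetic LXA4 replicate 6 a level of 0.708 CPM stands for 3 counts. Tll2 passed the low-count filter through the diabetic libraries, where it is high. The log2 difference of Tll2 was 2.82 under vehicle (edgeR adjusted p = 1.21e-05), 2.64 under LXA4 (adjusted p = 1.05e-05) and 3.08 under benzo-LXA4 (adjusted p = 1.42e-06). Chrdl2, a chordin-like BMP binder, rose by 1.74 under vehicle (adjusted p = 0.0412) and by 1.47 over treatments. Fstl3, an activin-binding follistatin-like protein, rose by 0.55 over treatments and Fstl1 by 0.19, whereas Chrdl1 fell by 0.63. Nbl1, another antagonist of the gremlin family, rose under LXA4 alone, by 1.28 (adjusted p = 0.00651).

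Among the ligands, 5 of 15 tested rose over treatments and 0 fell. Gdf15, a stress-induced member of the family, averaged 8.70 CPM in diabetic and 3.39 CPM in nondiabetic vehicle libraries, 9.44 and 3.18 CPM under LXA4, and 7.79 and 3.56 CPM under benzo-LXA4. Its log2 difference was 1.39 under vehicle (edgeR adjusted p = 2.29e-04), 1.55 under LXA4 and 1.12 under benzo-LXA4. Bmp3 rose by 0.74 over treatments, Gdf11 by 0.53 and Bmp1, a procollagen protease listed with the BMPs by name, by 0.36. Bmp2 rose under LXA4 alone, by 0.68, and was not called without the shallow pair.

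Among genes of latency and activation, 6 of 16 tested rose over treatments and 0 fell. These were Ltbp2 (1.14) and Ltbp3 (0.34), latent TGF-beta binding proteins, Dcn (0.52), a proteoglycan that binds TGF-beta, Fbn1 (0.39), the fibrillin to which latent complexes attach, Lrrc32 (0.28), a cell-surface holder of latent TGF-beta, and Itgav (0.17), an integrin subunit that activates it. Under vehicle Ltbp2, Fbn1, Lrrc32 and Itgav rose. Itgb6, a partner of Itgav, fell under LXA4, by 0.70.

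Of 18 receptors tested, Acvrl1 (0.26) and Acvr1b (0.17) rose over treatments. Tgfbr3, Acvr2b, Rgmb and Bambi also rose under LXA4, Bambi only with the shallow pair included. Acvr1c was called lower under benzo-LXA4, at -4.53 (edgeR adjusted p = 0.0398), through 1 library: nondiabetic benzo-LXA4 replicate 1 held 15.6 CPM, while the other nondiabetic benzo-LXA4 libraries held at most 0.892 CPM. That library had a summed level of adipose markers of 801 CPM, and the part of adipose RNA in the difference was not tested. Of 21 Smads and intracellular regulators, Smurf1, a ubiquitin ligase that works with SMAD7, rose by 0.31 over treatments, and Skil (-0.31), Fkbp1a (-0.19), Smad5 (-0.17) and Zfyve16 (-0.13) fell. Smad3, Smad6 and Ski rose under LXA4.

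Of 19 target genes, 4 rose and 4 fell over treatments. Tgfbi (0.44), Acta2 (0.40), Wisp1 (0.32) and Snai1 (0.31), genes known as TGF-beta or mesenchymal targets, rose. Hey1 (-0.51), Cyr61 (-0.50), Klf10 (-0.46) and Id2 (-0.45) fell. Id2 is a BMP target, Klf10 an early TGF-beta response gene and Cyr61 a relative of Ctgf.

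**Figure D4:**
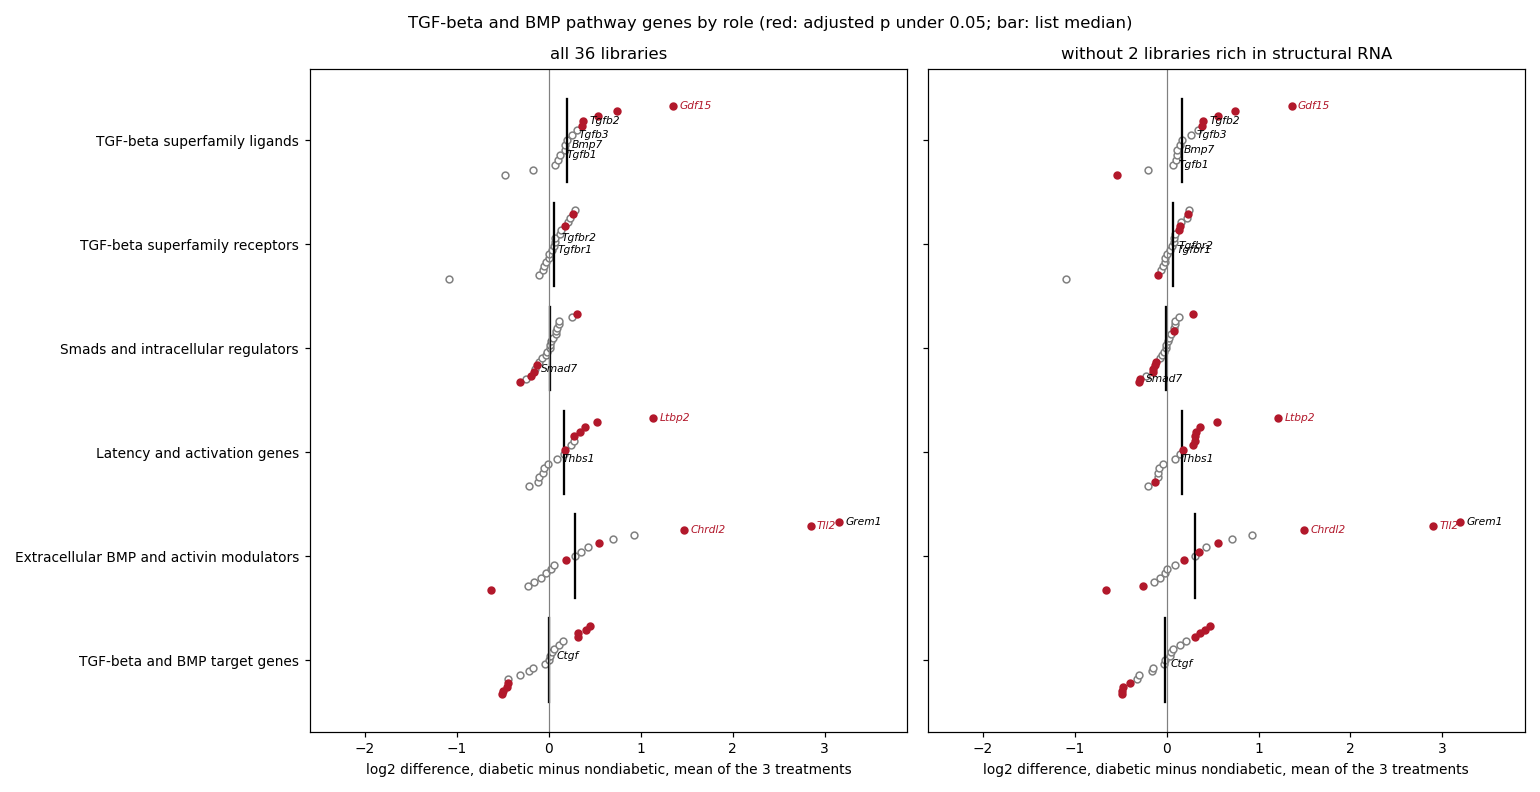
Log2 difference, diabetic minus nondiabetic, averaged over the 3 treatments, of the tested pathway genes in 6 roles, with all 36 libraries (left) and without the pair rich in structural RNA (right). Red points have an adjusted p under 0.05 and black bars are list medians; Grem1 (3.16) and Tll2 (2.85) stand far to the right of the other modulators.

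Markers of other cell types moved beside these genes. The summed level of 10 fibroblast and pericyte markers was 250 to 319 CPM in diabetic vehicle libraries and 189 to 462 CPM in nondiabetic vehicle libraries, or 189 to 221 CPM without nondiabetic vehicle replicate 3. Under LXA4 it was 244 to 1340 CPM in diabetic libraries, or 244 to 293 CPM without diabetic LXA4 replicate 6, and 184 to 270 CPM in nondiabetic libraries. Of these 10 markers, 1 was higher under vehicle (6 without the pair), 6 under LXA4 (3 without the pair), and 4 averaged over treatments (6 without the pair). With all 36 libraries, 3.44%, 15.4% and 18.8% of all genes in turn were called higher. Without the pair, 8.89%, 36.9% and 47.4% in turn were called in either direction. Averaged over treatments, 5 of 8 macrophage and myeloid markers and 5 of 8 podocyte markers tested were higher in diabetic mice. The share of all genes called higher was 18.8%. The median macrophage and myeloid sum was 120 CPM in diabetic and 95.1 CPM in nondiabetic vehicle libraries. Under LXA4 this sum was 94.7 and 96.3 CPM, and under benzo-LXA4 100 and 96 CPM, diabetic libraries first. Under LXA4, where 15.4% of all genes were called higher, 4 of 8 urothelium markers were higher in diabetic mice (6 without the pair). Their summed levels were 1.68 to 55.8 CPM in diabetic and 1.15 to 9.65 CPM in nondiabetic libraries. The median urothelium sum under vehicle was 3.9 CPM in diabetic and 9.38 CPM in nondiabetic libraries. With benzo-LXA4 it was 7.2 and 7.66 CPM. Of the smooth muscle markers, 3 of 8 were higher under LXA4, with median sums of 442 CPM in diabetic and 431 CPM in nondiabetic libraries. Under benzo-LXA4, 7 of 7 adipose markers tested were lower, where 4.06% of all genes were called in either direction and 2.81% were called higher. Their summed levels were 8.92 to 16.9 CPM in diabetic and 9.47 to 801 CPM in nondiabetic libraries. The 801 CPM was that of nondiabetic benzo-LXA4 replicate 1 alone, and the median sums were 13.1 CPM in diabetic and 15.5 CPM in nondiabetic libraries. The part of these cell types in the Grem1, Tgfb2, Bmp7, Tgfbr2 and Smad7 differences was not tested.

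Across the 36 libraries the genes whose levels ranked most like Grem1 were Birc3 (Spearman correlation 0.88), Synpo2 (0.87), Scg5 (0.87), B3galt1 (0.85) and Gm12153 (0.85). For Tgfb2 they were Bmx (0.79), Cdc25b (0.78), Clcf1 (0.76), Lif (0.75) and Prickle2 (0.73). For Bmp7 they were Gtf3c1 (0.81), Sun2 (0.77), Gm14005 (0.74), Wnk2 (0.74) and Igsf3 (0.73), and for Tgfbr2 Itpkb (0.77), Fnbp1 (0.76), Gm16576 (0.75), Dym (0.74) and Smurf1 (0.72). Within the set, Grem1 ran with Tgfb2 (0.60) and against Smad7 (-0.71). These values describe libraries that share groups and depth.

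Scg5, one of the genes that ranked most like Grem1, is also its neighbour. Of the genes of the count table within 500 kb of Grem1, chosen for this comparison after their values were seen, Scg5 (chr2:113776362-113829121), which encodes a chaperone of neuroendocrine secretion, and Arhgap11a (chr2:113831492-113848661) lie next upstream on the same strand. Arhgap11a rose in diabetic mice under vehicle by 1.12 on the log2 scale (edgeR adjusted p = 5.41e-04), under LXA4 by 0.80 (adjusted p = 0.00387) and under benzo-LXA4 by 1.08 (adjusted p = 8.16e-04). Scg5 rose under vehicle by 0.95 (adjusted p = 0.00743) and averaged over treatments by 0.58 (adjusted p = 5.71e-04). It was not called under LXA4 (0.39, adjusted p = 0.176) or benzo-LXA4 (0.39, adjusted p = 0.352) with all 36 libraries. Without the shallow pair it passed under LXA4 (0.52, adjusted p = 0.0223). Zfp770, at the far upstream end of the window, fell by 0.53 under LXA4 (adjusted p = 0.00707) and by 0.28 averaged over treatments (adjusted p = 0.00713). Fmn1, Aqr and Gm13963 were not called in the 4 comparisons with all 36 libraries, and without the shallow pair Aqr and Gm13963 passed averaged over treatments and Gm13963 under LXA4 (0.68, adjusted p = 0.0464).

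**Figure D5:**
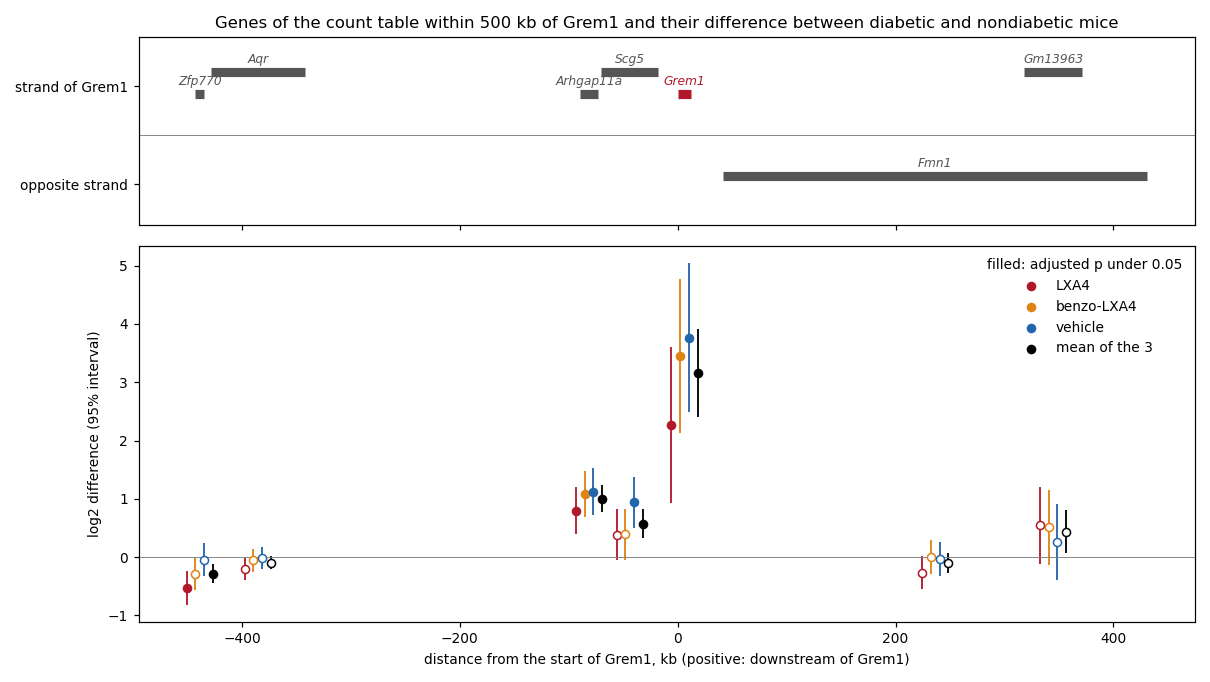
Genes of the count table within 500 kb of Grem1 by distance from its start in kb (top) and their log2 difference, diabetic minus nondiabetic, within LXA4, benzo-LXA4 and vehicle and averaged (bottom). Bars are 95% intervals and filled points have an adjusted p under 0.05; Arhgap11a is filled in all 4, at 0.80 to 1.12, and Grem1 stands highest.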

How the data were processed

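Per the labels' protocols, directional libraries were prepared from 200 ng of total kidney cortex RNA after removal of ribosomal RNA. The authors deposited raw counts per gene, made with bcl2fastq 2.17.1.14, STAR and featureCounts on GRCm38, per the submitters' processing notes; the sources used here do not state other versions, annotation, strand setting or how multi-mapping reads were treated. Groups came from the labels. All 36 libraries entered 1 quasi-likelihood fit of edgeR 4.0.16 (R 4.3.3), tested by F tests, with TMM factors and edgeR's low-count filter (15726 genes kept), Benjamini-Hochberg adjustment over all of them and a threshold of 0.05; the scripts were first tested on simulated data. Alternatives were DESeq2 1.42.0, voom with sample weights (limma 3.58.1), other normalization and filters, fewer groups, a replicate block, and left-out libraries. Depth per library ran from 8896193 to 43305005 counts and enters through the count model. Every listed pathway gene called in a comparison was to be named, and for each of the 10 genes that was called, the 5 most like it. Coordinates come from GENCODE M21 and promoters from RefSeq. Members, lists and the shallow pair were chosen with earlier results of these data known.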

Additional observations from a re-analysis of the deposited data

Results flagged for a closer look

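Of 60 combinations of gene and group, 7 had a library far from the other 5, by a gap to the nearest that was a large share of the group's range (above Dixon's 95% critical value, which chance passes in about 1 of 20 groups). Of the 7, 6 lay in the shallow pair rich in structural RNA. In diabetic LXA4 replicate 6, Tgfb1 was 24.6 CPM (nearest other 9.66), Bmp7 100 CPM (56.7), Smad7 185 CPM (55.8) and Ctgf 116 CPM (64.1), while Tgfbr1 was 59.3 CPM (124). In nondiabetic vehicle replicate 3, Tgfbr1 was 78.6 CPM (110). The remaining one was Tgfbr2 in nondiabetic benzo-LXA4 replicate 1, the library with the high adipose markers, at 107 CPM (99.7). The part of the structural RNA in these values was not tested.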

How the results depend on the processing

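No difference called by edgeR with all 36 libraries changed sign; some differences short of the threshold did, Smad7 under LXA4 among them (0.50, or -0.05 without the shallow pair). Other normalization, no filter, a filter of 1 CPM and leaving out structural RNA genes kept every count within 1.5 times. DESeq2 called 1330 genes in diabetic against nondiabetic mice under vehicle, 1064 under benzo-LXA4, 221 and 48 for LXA4 and benzo-LXA4 in diabetic mice, 3 and 2 in nondiabetic mice, and 257 for the LXA4 interaction; of the 10 genes it called 1 for LXA4 in diabetic mice and 1 for the interaction. Voom called 2221, 6954 and 2568 genes under vehicle, LXA4 and benzo-LXA4, 172 and 105 for the compounds in diabetic mice, 3 for LXA4 in nondiabetic mice and 211 for the interaction; of the 10, 2 under vehicle, 2 under benzo-LXA4 and 5 averaged, Smad7 lower among each. With only the compared groups fitted the counts were 342, 2338 and 1875 genes, 1 and 3 for the compounds in diabetic mice, and 0 for the interaction, with 2, 1 and 2 of the 10. Smad7 was called lower there under vehicle and benzo-LXA4. In that fit under LXA4, Bmp7 (edgeR adjusted p = 0.156) and Tgfbr2 (adjusted p = 0.121) were not called. Grem1 was not tested there, as its counts fell short of the low-count filter. Without the shallow pair the gene counts were 1399 under vehicle, 1906 under benzo-LXA4, 93 and 48 for the compounds in diabetic mice and 129 for the interaction, with 2 of the 10 under vehicle, LXA4 and benzo-LXA4. The replicate block gave 28 genes for LXA4 in diabetic mice and 9 for the interaction; Tgfbr2 under LXA4 had an adjusted p of 0.054. Deviations from the group mean were correlated between libraries of different groups. By the mean correlation per replicate number, 5 of 36 libraries were closest to their own number. Single same-number pairs ranged from -0.40 (replicate number 6) to 0.49 (replicate number 2). This gave no sign of pairing by replicate number and cannot exclude it. Leaving out 1 library gave 441 to 1338 genes under vehicle (441 without diabetic vehicle replicate 5, 1338 without replicate 2), 3446 to 4854 under LXA4, 389 to 606 under benzo-LXA4, 5096 to 7101 averaged, 0 to 88 for LXA4 in diabetic mice and 0 to 106 for the interaction. Of the 10 genes it gave 2 to 4 under LXA4, 2 to 3 averaged and 0 to 1 for LXA4 in diabetic mice, the 1 being Smad7 without diabetic LXA4 replicate 3 (adjusted p = 0.0406). The cause was not tested. Depth limits Grem1 most, with 0 to 20 counts in the shallow pair and nondiabetic libraries. In the fit of all 36 libraries, Grem1 passed the low-count filter mainly through diabetic libraries.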
